A study of Mus musculus with 10 samples.

Results

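The 38 genes described here are cell cycle genes of mouse liver, chosen by symbol: the D, E, A and B cyclins, their kinases and inhibitors, E2F factors and FOXM1, the replication machinery, enzymes of deoxynucleotide supply, and proteins of the mitotic chromosome and spindle. All 38 were found among the 46071 gene rows of the deposited count table. Liver polyadenylated RNA was sequenced in 10 libraries from offspring of crosses that differed in which parent was a LIRKO mouse. LIRKO mice are homozygous for a floxed insulin receptor gene (IR lox/lox) and heterozygous for Albumin-Cre, which deletes it in hepatocytes. FL offspring (3 libraries, FL 5, FL 6 and FL 7) had a LIRKO father and a control mother. ML offspring (3 libraries, ML 8, ML 9 and ML 10) came from the reverse cross, with the LIRKO parent on the mother's side. Control offspring (4 libraries, control 1 to control 4) had control parents on both sides, IR lox/lox and without Cre, from a line bred without Cre for several generations. So every parent in the study was IR lox/lox, and Cre could have come only from the LIRKO parent. Whether an offspring carried Cre itself is not stated in the labels, nor are sex, age, litter or diet, nor that each library is a separate animal. The p-values therefore measure the spread between these libraries. Values of a group are listed below in the order of its library numbers.

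The cell cycle is driven by cyclin-dependent kinases that act only when bound to a cyclin. D cyclins with CDK4 or CDK6 and then cyclin E with CDK2 inactivate the retinoblastoma protein and release E2F factors, which switch on the genes of DNA replication. Cyclin A, cyclin B and CDK1 then drive mitosis, and FOXM1 and the MuvB complexes switch on the mitotic genes. Hepatocytes of an adult liver are almost all quiescent, and they enter the cycle after loss of liver mass or injury. In bulk liver RNA, a lower level of such a gene from fewer cycling cells and from less RNA per cycling cell cannot be told apart.

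Libraries held 23192571 to 31116742 counts in FL, 26614915 to 34568205 in ML and 18655506 to 39379940 in control, the lowest being control 1. Summed over 10 hepatocyte markers, the level was 65249.6 to 121970 CPM (read counts scaled to library size) in the 10 libraries, so the liver label held throughout. Control 1 and ML 9 stood apart from the other libraries on the first principal component, which held 53.2% of the variance. Short genes (exons under 1000 bp) deviated from their own means by a median log2 value of 1.67 in ML 9, against 0.51 for control 1, and 13 of the 38 genes had under 10 counts in ML 9. The insulin receptor gene Insr had 77.6, 59.3 and 59.4 CPM in FL, 54.4, 28.2 and 55.2 CPM in ML and 62.9, 82.2, 128 and 69.1 CPM in control, so it was present in every library.

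No cell cycle gene passed an adjusted p of 0.05 in any of the 3 comparisons. Of the 38 genes, 37 had enough counts to be tested, and Bub1 did not. The tests were run with edgeR's quasi-likelihood method over all 14820 genes with enough counts, with Benjamini-Hochberg adjustment. Few genes of any kind passed. The share was 0.0135% (2 genes) for FL against control, 0.0% (0 genes) for ML against control and 0.00675% (1 gene) for FL against ML. By edgeR, the lowest adjusted p among the cell cycle genes was 0.858 for FL against control, 0.301 for ML against control and 0.238 for FL against ML. At an unadjusted p under 0.05, FL against control had 2 genes higher and 1 lower, beside 1.63% and 1.9% of all genes (3.53% together). ML against control had 2 higher and 4 lower, beside 8.81% and 7.33% (16.1% together). FL against ML had 3 higher and 1 lower, beside 7.59% and 12.4% (20.0% together). DESeq2 and limma-voom called none of the 37 either, but for FL against ML DESeq2 gave none of them an adjusted p. The fold changes below are therefore values with their errors, and none passed the test.

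For FL against control, 22 of the 37 log2 fold changes were below 0, with a median of -0.08. The share below 0 over all genes was 55.3%, with a median of -0.05. For ML against control, 30 of the 37 were below 0, with a median of -0.76, beside 52.9% of all genes and a median of -0.05. For FL against ML, 11 of the 37 were below 0, with a median of 0.33, beside 47.9% of all genes and a median of 0.04. Both comparisons with control used the same 4 control libraries. The counts for FL against control and for FL against ML rested in part on single libraries. Without control 3, 13 of 36 genes were below 0 for FL against control. Without FL 7, 19 of 37 were below 0 for FL against ML. The count for ML against control was 25 to 30 with any 1 library left out. The median for ML against control was -0.24 without control 3 and -1.24 without ML 8. The heat map of all 38 genes shows where those libraries differed, and the plot of fold changes gives each gene's estimate.

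**Figure D1:**
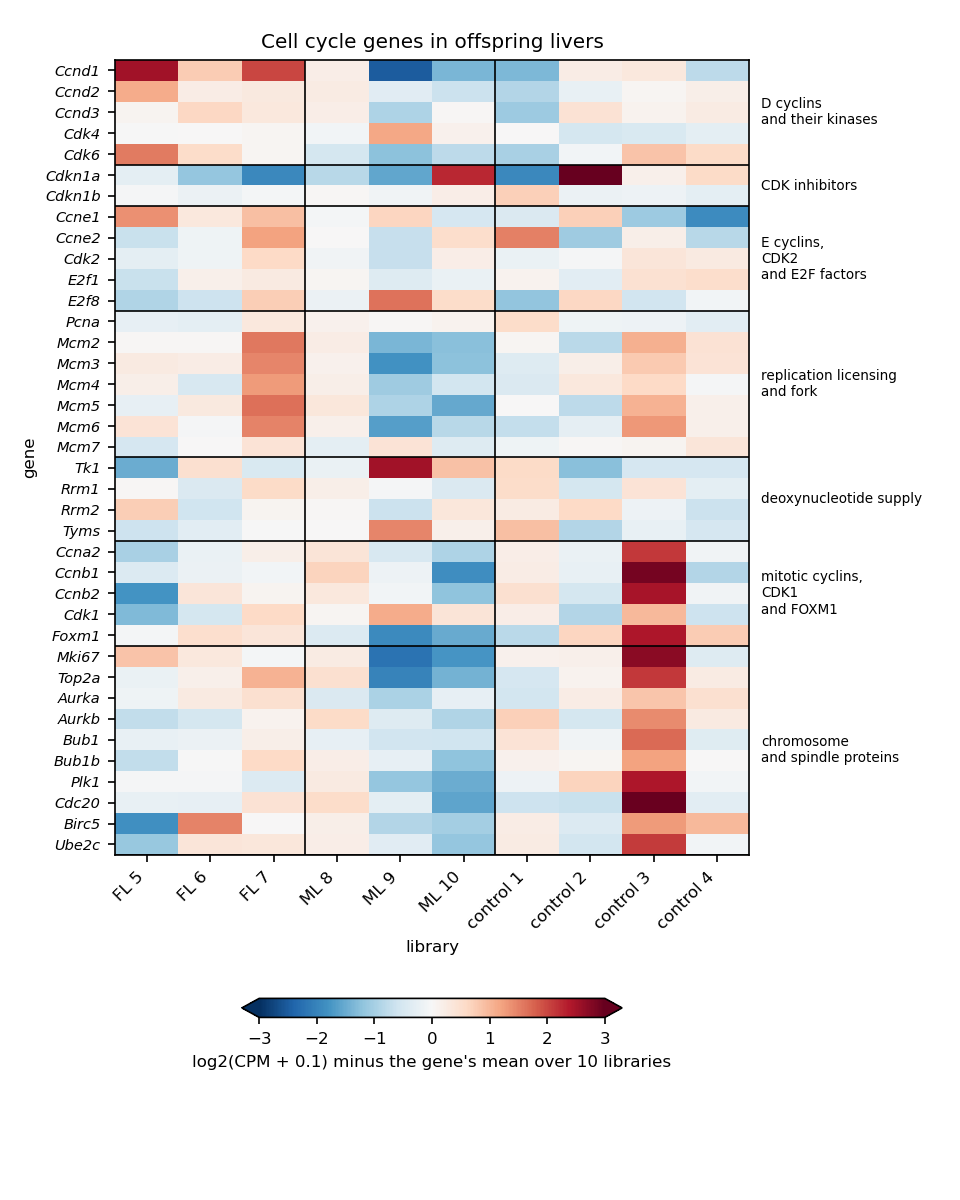
Level of each of the 38 genes (rows, grouped by role) in each library (columns), as log2(CPM + 0.1) minus the gene's mean over the 10 libraries, with colours saturating at 3 in either direction. Control 3 is the darkest red column over most of the 15 mitotic genes in the bottom 2 blocks, FL 7 over the MCM subunits other than Mcm7, and FL 5 and FL 7 in the Ccnd1 row.

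**Figure D2:**
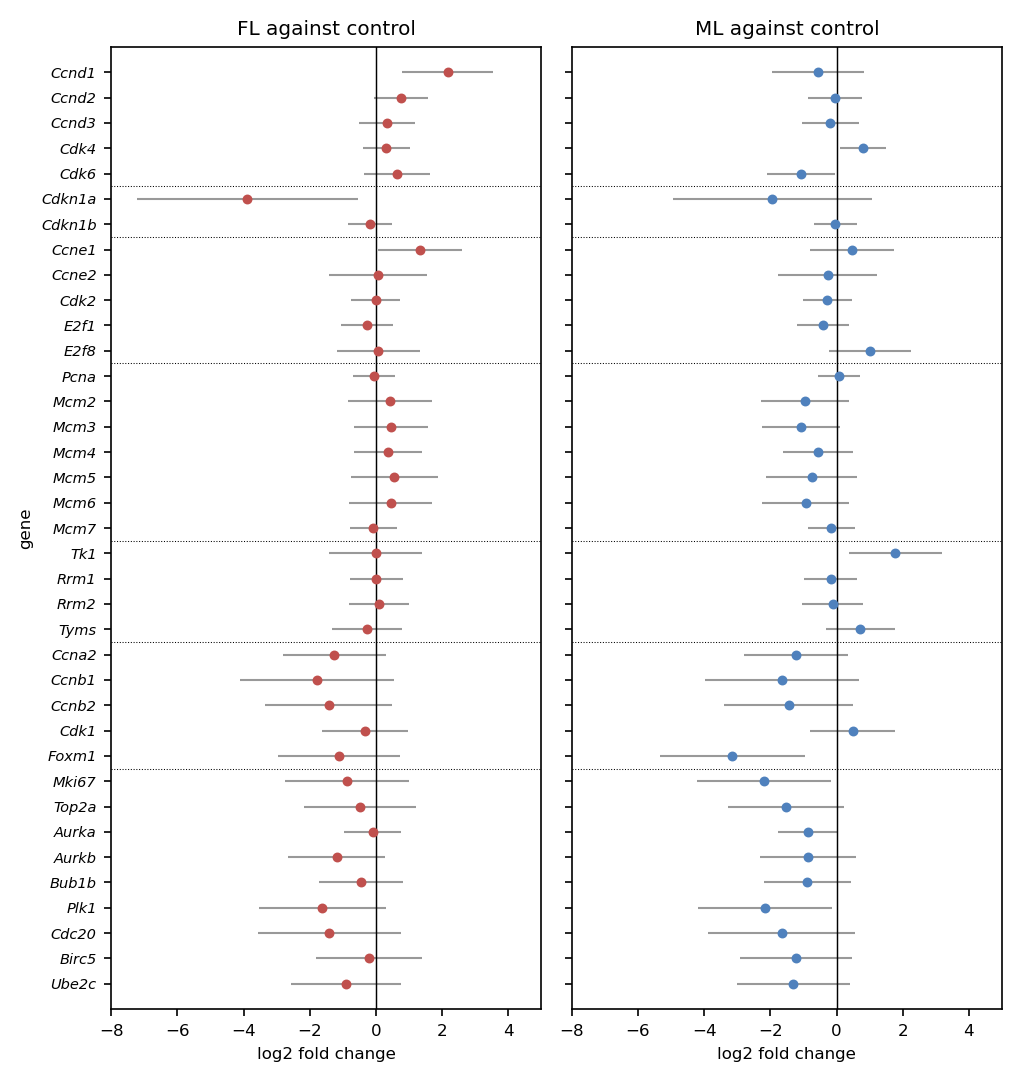
Log2 fold changes of the 37 tested genes for FL against control (left) and ML against control (right), with 95% intervals from edgeR's quasi-likelihood fit as bars and dotted lines between roles. All 5 D cyclin and kinase genes lie above 0 on the left, and most mitotic genes at the bottom lie below 0 in both panels.

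D cyclins and their kinases held the cell cycle gene with the lowest p in FL livers. For FL against control, all 5 had log2 fold changes above 0, from 0.31 to 2.18. Cyclin D1, Ccnd1 (ENSMUSG00000070348, GRCm38 chromosome 7, 144929931 to 144939925), is the D cyclin that hepatocytes induce on leaving quiescence. Its level was 74.1, 22.2 and 51.9 CPM in FL, against 14.9, 2.22 and 4.96 CPM in ML and 5.01, 15.2, 16.0 and 7.42 CPM in control. Every FL library lay above all ML and control libraries, while ML and control overlapped. The log2 fold change was 2.18 (SE 0.63) for FL against control and 2.73 (SE 0.71) for FL against ML, with edgeR adjusted p of 0.858 and 0.238. For ML against control it was -0.56 (SE 0.63, edgeR adjusted p 0.642), with -1.59 without ML 8 and -0.12 without ML 9. Leaving out 1 library at a time, the value for FL against control ranged over 1.76 to 2.53.

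Exons of Ccnd1 overlap those of LTO1, a gene on the opposite strand, over 1100 bp, and the strand setting of the counting is not given in the sources used here. LTO1 had 15.7, 12.2 and 14.3 CPM in FL, 12.4, 12.5 and 8.53 CPM in ML and 7.41, 6.55, 4.27 and 9.35 CPM in control. FL lay above control for LTO1 as well, and its part in the Ccnd1 counts was not tested.

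Cyclin D2, Ccnd2, had 15.2, 8.17 and 8.56 CPM in FL, 8.35, 5.48 and 4.44 CPM in ML and 3.76, 6.01, 7.32 and 7.89 CPM in control. All 3 FL libraries were above all 4 controls, although FL 6 and control 4 lay close together, and FL against control gave 0.76 on the log2 scale (SE 0.37, edgeR adjusted p 1.00). Ccnd1 and Ccnd2 were the 2 cell cycle genes with every FL library above every control library, as were 2.79% of all genes tested, and no cell cycle gene had every FL library below, as did 2.92% of all genes. Cdk6, a kinase partner of the D cyclins, had 50.1, 24.7 and 17.7 CPM in FL, 11.7, 7.11 and 9.83 CPM in ML and 8.60, 15.9, 30.5 and 25.0 CPM in control. FL overlapped control and lay above ML, with log2 fold changes of 1.69 (SE 0.51) for FL against ML and -1.07 (SE 0.47) for ML against control, and edgeR adjusted p of 0.238 and 0.306. After each library was corrected for gene length and GC, the values were 0.97 and -0.40, and with 1 surrogate variable 0.75 and -0.29.

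Cdk4, the other kinase of the D cyclins, had 30.1, 30.4 and 31.4 CPM in FL, 28.6, 67.5 and 33.2 CPM in ML and 30.5, 21.1, 22.2 and 24.9 CPM in control. ML 9 was the highest library. The log2 fold change for ML against control was 0.80 (SE 0.32, edgeR adjusted p 0.301), and 0.34 without ML 9. Cdk4 overlaps Tspan31 on the opposite strand over 641 bp. Cyclin D3, Ccnd3, had 28.2 ± 5.35 CPM in FL (SD, n = 3), 19.8 ± 7.26 CPM in ML (SD, n = 3) and 22.6 ± 8.49 CPM in control (SD, n = 4), and all 3 groups overlapped. Summed over the 5 genes, the level was 193, 119 and 137 CPM in FL, 88.8, 93.9 and 75.0 CPM in ML and 58.3, 87.9, 99.8 and 91.7 CPM in control.

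**Figure D3:**
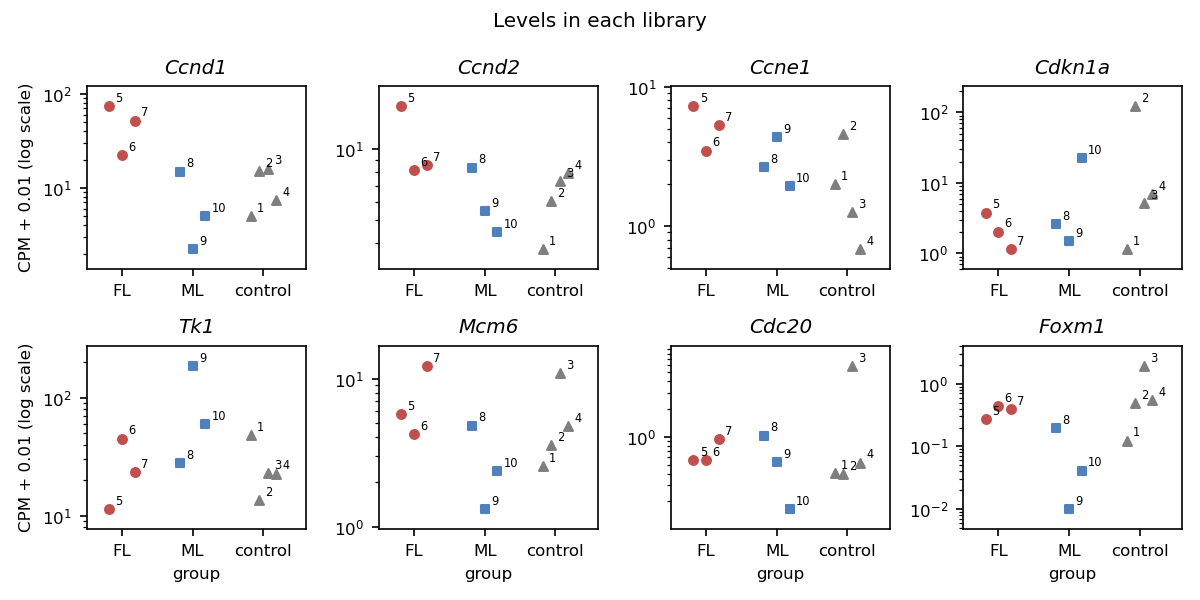
CPM + 0.01 on a log scale for 8 genes in each library, with FL as circles, ML as squares and control as triangles, numbered by library. The 3 FL points for Ccnd1, at 22.2 to 74.1 CPM, lie above all others, Cdkn1a is high in control 2 at 123 CPM, and Cdc20 is high in control 3 at 5.87 CPM.

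The CDK inhibitors had their high values in single libraries. Cdkn1a encodes p21, which binds cyclin-CDK complexes and is induced by p53. It had 3.78, 2.03 and 1.14 CPM in FL, 2.57, 1.50 and 22.5 CPM in ML and 1.14, 123, 5.12 and 6.93 CPM in control. Control 2, with 4833 counts, was far above the rest, ML 10 was next, and the lowest control equalled the lowest FL library to 3 digits. On the log2 scale the change was -3.89 (SE 1.53) for FL against control and -1.94 (SE 1.38) for ML against control, with edgeR adjusted p of 1.00 and 0.453. Without control 2 it was -0.94 for FL against control and 1.01 for ML against control. Cdkn1b, which encodes the inhibitor p27 of quiescent cells, had 22.4, 20.1 and 22.0 CPM in FL, 23.5, 21.2 and 26.3 CPM in ML and 37.7, 20.3, 20.6 and 18.7 CPM in control. Control 1 was the highest and the other 9 libraries lay within 18.7 to 26.3 CPM.

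Other p53 targets did not share one pattern in control 2. Of 18 listed targets, 4 (22.2%) were highest in control 2, among them Btg2 and Gadd45a. Of all genes tested, 12.4% were highest in that library, which was singled out after its Cdkn1a value was seen. Btg2, an antiproliferative gene, had 8.93, 27.2 and 7.60 CPM in FL, 10.6, 2.80 and 9.86 CPM in ML and 10.8, 224, 39.4 and 33.4 CPM in control. Its log2 fold change was -2.40 (SE 0.94) for FL against control and -3.30 (SE 0.98) for ML against control, with edgeR adjusted p of 1.00 and 0.301, and without control 2 the values were -0.94 and -1.83. DESeq2 called Btg2 for ML against control, with an adjusted p of 0.033. Gadd45a, a growth arrest gene, had 4.33, 1.43 and 1.80 CPM in ML and 5.58, 36.4, 10.6 and 1.97 CPM in control, with a log2 fold change of -2.42 (SE 0.88, edgeR adjusted p 0.301), and -1.24 without control 2. Mdm2, the p53 ubiquitin ligase, had 30.7, 27.9 and 26.3 CPM in FL, 30.7, 21.1 and 32.8 CPM in ML and 37.2, 42.7, 32.0 and 28.1 CPM in control, so control 2 was highest by a small margin.

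The stress gene Trp53inp1 had 26.7, 50.5 and 48.9 CPM in FL, 37.5, 16.0 and 126 CPM in ML and 122, 151, 189 and 108 CPM in control. All FL libraries lay below all controls, with a log2 fold change of -1.76 (SE 0.59, edgeR adjusted p 1.00). In ML the log2 fold change against control was -1.25 (SE 0.57, edgeR adjusted p 0.310), and ML 10 lay among the controls. The kinase gene Plk2, a p53 target, had 12.8, 7.99 and 8.56 CPM in FL and 6.61, 5.94, 4.04 and 5.47 CPM in control, without overlap, at 0.83 (SE 0.32, edgeR adjusted p 1.00). None of the 18 passed in either comparison with control by edgeR. For FL against control 14 of them were below 0, with a median of -0.31, and for ML against control 10 were below 0, with a median of -0.21.

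E cyclins, CDK2 and the E2F factors act at the step from G1 into S phase. Cyclin E1, Ccne1, had 7.26, 3.47 and 5.27 CPM in FL, 2.63, 4.37 and 1.92 CPM in ML and 1.99, 4.59, 1.24 and 0.673 CPM in control. Control 2 lay above FL 6, so the FL and control ranges overlapped. The log2 fold change for FL against control was 1.33 (SE 0.58, edgeR adjusted p 1.00), and 2.06 without control 2. Cyclin E2, Ccne2, was highest in control 1 at 6.89 CPM and next in FL 7 at 5.59 CPM, and the other 8 libraries held 1.07 to 3.44 CPM. Cdk2, the kinase of cyclin E, had 9.11 ± 3.16 CPM in FL (SD, n = 3), 7.55 ± 2.28 CPM in ML (SD, n = 3) and 9.18 ± 1.65 CPM in control (SD, n = 4). E2f1, an activator of S-phase genes, had 3.61 ± 1.19 CPM in FL, 3.27 ± 0.507 CPM in ML and 4.34 ± 1.13 CPM in control. E2f8, a repressor of E2F targets, was highest in ML 9 at 12.2 CPM, and the other 9 libraries held 1.65 to 6.46 CPM.

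Of 28 other regulators of G1 and of the E2F pathway, 25 were tested and none passed by edgeR in either comparison with control. For FL against control 15 of the 25 were below 0, with a median of -0.14, and for ML against control 11 were below 0, with a median of 0.03. Skp2, the ubiquitin ligase subunit that marks p27 for degradation, had 3.63, 2.17 and 4.19 CPM in FL and 1.14, 0.662, 1.11 and 1.64 CPM in control. All FL libraries exceeded all controls, and the log2 fold change was 1.54 (SE 0.40, edgeR adjusted p 0.703). Myc, a transcription factor of growth and proliferation, had 2.41, 3.62 and 1.92 CPM in FL and 4.56, 18.1, 7.53 and 8.32 CPM in control, again without overlap but with FL lower, at -1.86 (SE 0.53, edgeR adjusted p 0.813). Ccng2, a cyclin of arrested cells, had 4.67, 7.82 and 11.8 CPM in FL and 26.2, 15.6, 12.7 and 14.7 CPM in control, at -1.09 (SE 0.43, edgeR adjusted p 1.00).

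Among these regulators in ML livers, the repressor E2f7 held 1, 0 and 2 counts in ML, against 1, 38, 6 and 25 in control, too few for a fold change to be read. Cdc34, a ubiquitin-conjugating enzyme of the G1 to S step, had 90.3, 432 and 98.2 CPM in ML and 131, 66.6, 56.7 and 58.6 CPM in control, at 1.40 (SE 0.53, edgeR adjusted p 0.301), and 0.28 without ML 9. The retinoblastoma gene Rb1 had 4.36, 2.28 and 4.28 CPM in ML and 9.57, 5.53, 7.89 and 5.02 CPM in control. Every ML library lay below every control, at -0.93 (SE 0.37, edgeR adjusted p 0.301).

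Replication licensing genes encode the MCM helicase, whose 6 subunits Mcm2 to Mcm7 are loaded on origins in G1, and Pcna, the sliding clamp of the replication fork. All 6 MCM genes were highest in the same library, Mcm7 by a very small margin, so promoters of 3 of them are printed here. Each is the 300 bases from 250 before to 50 after the gene start, from RefSeq on GRCm38.p6, 5′ to 3′ along the gene, and such promoters were matched for 31 of the 38 genes (34 promoters; Ccnd1, Ccnd2, Ccne2, Ccna2, Foxm1, Mcm4 and Aurkb had none). Capitals mark E2F-type motifs (TTTCCCGC or TTTGGCGC) and the CCAAT motif, each searched on both strands, with any base free to count for more than 1 motif.
Mcm3, chr1:20820263-20820562, minus strand: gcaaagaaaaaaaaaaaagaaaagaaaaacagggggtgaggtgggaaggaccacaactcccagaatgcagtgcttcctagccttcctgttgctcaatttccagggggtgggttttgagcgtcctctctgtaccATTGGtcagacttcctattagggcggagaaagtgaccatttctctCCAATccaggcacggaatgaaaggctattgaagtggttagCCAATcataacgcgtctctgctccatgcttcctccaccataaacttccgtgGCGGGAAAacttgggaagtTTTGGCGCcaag
Mcm6, chr1:128359656-128359955, minus strand: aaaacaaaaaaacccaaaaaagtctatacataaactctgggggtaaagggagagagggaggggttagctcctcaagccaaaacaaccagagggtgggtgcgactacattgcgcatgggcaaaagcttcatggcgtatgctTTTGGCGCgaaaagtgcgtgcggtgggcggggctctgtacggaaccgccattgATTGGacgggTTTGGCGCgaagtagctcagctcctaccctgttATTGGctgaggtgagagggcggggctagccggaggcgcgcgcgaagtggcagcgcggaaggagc
Mcm5, chr8:75109259-75109558, plus strand: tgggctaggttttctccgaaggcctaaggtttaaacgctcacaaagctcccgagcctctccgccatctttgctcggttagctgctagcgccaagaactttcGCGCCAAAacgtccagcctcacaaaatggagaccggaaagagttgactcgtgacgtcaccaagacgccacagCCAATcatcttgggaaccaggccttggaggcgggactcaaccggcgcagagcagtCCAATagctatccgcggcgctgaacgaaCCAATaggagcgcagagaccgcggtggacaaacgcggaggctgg
The E2F-type letters were in 4 of the 6 MCM promoters matched, which belong to 5 genes (66.7%), and in 1.56% of the 32851 promoters searched. Those promoters belong to 27025 genes. Promoters on 1 chromosome, and any not 300 bases long, were left out of the search. CCAAT was in all 6, and in 37.4% of the promoters searched. The 3 printed were taken from those holding an E2F-type match, and a match is a description of the letters.

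Mcm3 had 3.93, 3.79 and 9.09 CPM in FL, 3.55, 0.848 and 1.33 CPM in ML and 2.45, 3.69, 5.72 and 4.35 CPM in control. Mcm6 had 5.78, 4.20 and 12.2 CPM in FL, 4.81, 1.30 and 2.36 CPM in ML and 2.56, 3.54, 10.8 and 4.78 CPM in control. Mcm5 had 2.26, 3.36 and 8.65 CPM in FL, 3.47, 1.37 and 0.868 CPM in ML and 2.74, 1.53, 5.69 and 3.00 CPM in control. In each, FL 7 was the highest of the 10 libraries, control 3 was second, and FL 5 and FL 6 lay among the controls. Mcm2 held 3.26, 3.24 and 9.76 CPM in FL, Mcm4 4.15, 2.58 and 8.94 CPM, and Mcm7 7.89, 11.2 and 14.9 CPM. The highest ML and control values were 3.76 and 6.73 CPM for Mcm2 and 4.12 and 5.59 CPM for Mcm4. For Mcm7 they were 14.8 and 14.5 CPM, so FL 7 did not stand apart for Mcm7. The ratio of FL 7 to the mean of FL 5 and FL 6 was 1.56 to 3.08 over the 6 subunits, with a median of 2.55. Summed, the 6 subunits had 27.3, 28.4 and 63.5 CPM in FL, 28.8, 21.2 and 16.8 CPM in ML and 23.9, 26.5, 46.3 and 34.5 CPM in control.

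No MCM gene differed between groups by the test. In FL against control, 5 of the 7 genes of the replication role were above 0 with a median of 0.42, and without FL 7 all 7 were below 0 with a median of -0.28. For FL against ML, the log2 fold changes were 1.53 (SE 0.57) for Mcm3, 1.37 (SE 0.64) for Mcm6 and 1.37 (SE 0.64) for Mcm2, with edgeR adjusted p of 0.238, 0.252 and 0.252. Without FL 7 these values were 1.00, 0.81 and 0.64. In ML against control, 6 of the 7 were below 0 with a median of -0.76, and -0.35 without control 3. Pcna had 20.5, 19.7 and 30.3 CPM in FL, 26.4, 25.0 and 26.1 CPM in ML and 35.3, 22.2, 21.9 and 19.3 CPM in control, and its log2 fold change was -0.07 for FL and 0.07 for ML against control.

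The pattern in FL 7 was wider than the MCM genes. Of 40 other S-phase genes, 37 were tested and 15 of those (40.5%) were highest in FL 7, as were 2.83% of all genes tested. The library was chosen after its MCM values were seen, so this is a description. By edgeR none of the 37 passed in either comparison with control: for FL 21 were below 0, with a median of -0.01, and for ML 25 were below 0, with a median of -0.24. Cdca7, a gene induced by E2F and MYC, had 3.22, 1.65 and 3.52 CPM in FL, 1.68, 1.24 and 1.49 CPM in ML and 0.969, 0.688, 0.699 and 1.03 CPM in control. Every FL library lay above every control, at a log2 fold change of 1.72 (SE 0.39, edgeR adjusted p 0.460). DESeq2 called Cdca7, with an adjusted p of 0.00794. Cdc6, a licensing factor, had 0.333, 0.550 and 1.40 CPM in FL and 0.342, 0.204, 0.259 and 0.179 CPM in control, at 1.66 (SE 0.59, edgeR adjusted p 1.00), and 0.88 without FL 7. Cdc25a, the phosphatase that activates CDK2, had 10.2, 4.92 and 5.33 CPM in FL and 1.31, 4.79, 3.23 and 2.91 CPM in control, at 1.14 (SE 0.43, edgeR adjusted p 1.00).

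In ML livers, the S-phase genes with the lowest p were Rad54l, a recombination gene, Pole, the catalytic subunit of DNA polymerase epsilon, and Mcm10, a replication initiation factor. Rad54l held 6, 0 and 1 counts in ML and 3, 15, 8 and 16 in control, at -1.89 (SE 0.75, edgeR adjusted p 0.301). Pole had 0.814, 0.391 and 0.589 CPM in ML and 0.741, 1.27, 2.20 and 1.88 CPM in control, at -1.33 (SE 0.54, edgeR adjusted p 0.301). Mcm10 lay the other way, with 135, 266 and 215 CPM in ML and 169, 63.0, 93.3 and 141 CPM in control, at 0.82 (SE 0.37, edgeR adjusted p 0.307). Its control mean of 117 CPM was far above the 24.6 CPM of Pcna, and whether all its counts came from Mcm10 RNA was not tested.

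**Figure D4:**
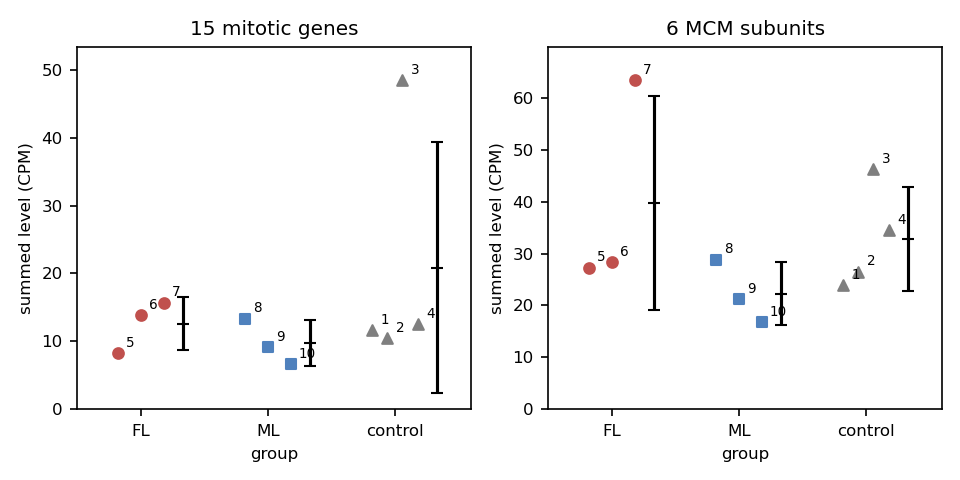
Summed CPM of the 15 mitotic genes (left) and of the 6 MCM subunits (right) in each library, numbered, with the mean ± SD of each group beside its points. Control 3 lies at 48.5 CPM on the left, above a range of 6.61 to 15.7 CPM in the other 9 libraries, and FL 7 lies at 63.5 CPM on the right.

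Genes of deoxynucleotide supply showed the high value of 1 ML library. Tk1, the S-phase thymidine kinase, had 11.4, 45.1 and 23.6 CPM in FL, 28.2, 186 and 59.8 CPM in ML and 48.0, 13.5, 22.8 and 22.7 CPM in control. ML 9 was highest, and the 3 groups overlapped with or without it. Fold changes on the log2 scale were 1.77 (SE 0.64) for ML against control and -1.77 (SE 0.71) for FL against ML, with edgeR adjusted p of 0.301 and 0.238. Without ML 9 the values were 0.73 and -0.74. Tk1 overlaps exons of Afmid on the opposite strand over 83 bp, and Afmid had 36.0, 43.0 and 57.0 CPM in ML and 29.4, 25.4, 29.2 and 37.0 CPM in control. Tyms, thymidylate synthase, was highest in ML 9 as well, with 5.74, 7.12 and 8.85 CPM in FL, 8.88, 24.7 and 9.92 CPM in ML and 16.6, 4.79, 7.53 and 6.23 CPM in control. The ribonucleotide reductase subunits Rrm1 and Rrm2 did not stand apart in any group: Rrm1 had 9.10 ± 3.19 CPM in FL, 7.97 ± 1.66 CPM in ML and 9.04 ± 3.18 CPM in control, and Rrm2 had 9.03 ± 4.13 CPM in FL, 7.79 ± 2.53 CPM in ML and 8.49 ± 3.06 CPM in control (SD, n = 3, 3 and 4).

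Between FL and ML, 5 cell cycle genes had every FL library above every ML library, namely Ccnd1, Cdk6, Mcm3, Foxm1 and Aurka, and Tyms had every FL library below. Over all genes tested the shares were 16.6% and 15.1%. The 5 higher genes were near that share of the 37 tested, and the 1 lower gene was under it. No cell cycle gene separated ML from control, as did 2.17% of all genes with ML higher and 2.86% with ML lower.

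The mitotic genes are the 5 of cyclins A2, B1 and B2, CDK1 and FOXM1, and 10 that encode chromosome and spindle proteins. Their main pattern was a single control library: control 3 was the highest of the 10 libraries for 13 of the 15, the exceptions being Cdk1 (ML 9) and Birc5 (FL 6). Promoters of 4 of these genes are printed because the genes were high together in control 3. Capitals mark the letters TTTGAA of the cell cycle genes homology region (CHR), an element known from mitotic promoters, and CCAAT, each on both strands. Build, length and source are those of the MCM promoters.
Ccnb2, chr9:70421505-70421804, minus strand: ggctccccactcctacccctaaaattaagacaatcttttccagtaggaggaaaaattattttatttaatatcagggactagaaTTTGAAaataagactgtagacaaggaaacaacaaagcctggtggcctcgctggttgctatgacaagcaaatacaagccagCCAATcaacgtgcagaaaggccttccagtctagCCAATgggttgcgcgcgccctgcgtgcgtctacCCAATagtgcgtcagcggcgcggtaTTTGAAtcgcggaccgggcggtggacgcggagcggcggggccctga
Cdc20, chr4:118437294-118437593, minus strand: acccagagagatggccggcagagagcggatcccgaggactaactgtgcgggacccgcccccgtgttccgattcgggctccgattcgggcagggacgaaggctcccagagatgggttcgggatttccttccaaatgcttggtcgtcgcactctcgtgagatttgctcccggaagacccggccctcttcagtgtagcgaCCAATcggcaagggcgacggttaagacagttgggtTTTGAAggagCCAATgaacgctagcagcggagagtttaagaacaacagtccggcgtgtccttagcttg
Plk1, chr7:122159185-122159484, plus strand: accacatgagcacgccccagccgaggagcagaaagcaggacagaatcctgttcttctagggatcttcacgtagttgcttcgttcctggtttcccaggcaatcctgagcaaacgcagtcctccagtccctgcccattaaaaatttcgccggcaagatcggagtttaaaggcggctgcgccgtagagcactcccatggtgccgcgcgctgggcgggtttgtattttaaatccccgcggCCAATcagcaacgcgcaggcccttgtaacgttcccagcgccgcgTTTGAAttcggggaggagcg
Mki67, chr7:135716330-135716629, minus strand: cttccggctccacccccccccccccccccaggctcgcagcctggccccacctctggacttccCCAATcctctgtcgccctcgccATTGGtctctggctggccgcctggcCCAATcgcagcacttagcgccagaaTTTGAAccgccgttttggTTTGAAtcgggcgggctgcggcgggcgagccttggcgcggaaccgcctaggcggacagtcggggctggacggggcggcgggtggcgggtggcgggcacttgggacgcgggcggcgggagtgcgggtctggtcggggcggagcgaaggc
TTTGAA was in 9 of the 12 mitotic promoters matched (75.0%), in 1 of 6 MCM promoters (16.7%) and in 17.9% of the 32851 promoters searched. The 3 without it were those of Ccnb1, Bub1 and Birc5, of which Ccnb1 and Bub1 were highest in control 3 all the same. CCAAT was in 11 of the 12 (91.7%), and the E2F-type letters in none. The 4 printed were taken from those that hold TTTGAA.

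Cdc20, the activator of the anaphase-promoting complex, had 0.556, 0.550 and 0.932 CPM in FL, 1.02, 0.522 and 0.155 CPM in ML and 0.399, 0.382, 5.87 and 0.516 CPM in control. Mki67, the proliferation antigen Ki-67, had 1.85, 1.25 and 0.932 CPM in FL, 1.18, 0.130 and 0.217 CPM in ML and 1.08, 1.10, 6.91 and 0.717 CPM in control. Ccnb1, cyclin B1, had 0.259, 0.319 and 0.349 CPM in FL, 0.657, 0.326 and 0.0310 CPM in ML and 0.456, 0.306, 3.34 and 0.157 CPM in control. In each of these 3, control 3 was the highest library by a wide margin, while the other 3 controls lay within the range of the FL and ML libraries. Control 3 was 1.67 to 13.6 times the mean of the other controls over the 15 genes, with a median ratio of 4.94. These rest on 27 to 267 counts per gene in control 3.

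The other mitotic genes followed the same pattern to different degrees. Ccnb2, cyclin B2, had 3.98 CPM in control 3 and 0.111 to 0.912 CPM in the other 9 libraries. Ccna2, cyclin A2, had 3.31 CPM there and 0.296 to 0.919 CPM elsewhere, and Ube2c, the ubiquitin-conjugating enzyme of mitotic exit, had 2.90 CPM and 0.217 to 0.811 CPM. Top2a, the topoisomerase of chromosome condensation, had 0.926, 1.22 and 2.33 CPM in FL, 1.55, 0.196 and 0.341 CPM in ML and 0.741, 1.17, 5.10 and 1.30 CPM in control. The checkpoint kinase genes Bub1 and Bub1b had 0.699 and 1.42 CPM in control 3, and at most 0.228 and 0.903 CPM in any other library. Of the Aurora kinase genes, Aurka was at 4.01 CPM in control 3 and 1.11 to 3.14 CPM elsewhere, and Aurkb at 1.16 CPM there and 0.155 to 0.684 CPM elsewhere.

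Cdk1, the mitotic kinase, had 0.667, 1.22 and 2.80 CPM in FL, 1.89, 4.04 and 2.39 CPM in ML and 2.11, 0.942, 3.67 and 1.14 CPM in control. Birc5, survivin of the chromosomal passenger complex, had 0.185, 2.75 and 0.932 CPM in FL, 1.05, 0.456 and 0.403 CPM in ML and 1.08, 0.662, 2.35 and 1.91 CPM in control. For both, control 3 was second highest and the 3 groups overlapped. Summed over the 15 genes, the level was 8.22, 13.8 and 15.7 CPM in FL, 13.3, 9.13 and 6.61 CPM in ML and 11.7, 10.5, 48.5 and 12.5 CPM in control. The mean was 12.6 ± 3.89 CPM in FL (SD, n = 3), 9.68 ± 3.39 CPM in ML (SD, n = 3) and 20.8 ± 18.5 CPM in control (SD, n = 4), and the controls other than control 3 averaged 11.6 CPM.

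In FL livers, all 14 tested mitotic genes were below 0 against control, with a median of -1.01, and none passed. Without control 3, 5 of 13 were below 0 with a median of 0.08. Against control, the log2 fold change of Plk1, the Polo-like kinase of mitosis, was -1.62 (SE 0.88), of Aurkb -1.19 (SE 0.67), of Mki67 -0.88 (SE 0.86), of Top2a -0.49 (SE 0.77) and of Cdk1 -0.33 (SE 0.59), each with an edgeR adjusted p of 1.00. Without control 3, Mki67 was at 0.48, Top2a at 0.46 and Cdk1 at 0.18, while Aurkb stayed below 0 at -0.69 and Plk1 had too few counts to be tested. So the direction of the mitotic genes in FL against control depended on 1 library, as the plot of fold changes with and without control 3 shows.

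In ML livers, 13 of the 14 log2 fold changes against control were below 0, with a median of -1.38, and without control 3, 10 of 13 with a median of -0.37. Foxm1, the transcription factor of mitotic genes, had 0.259, 0.434 and 0.379 CPM in FL, 0.184, 0 and 0.0310 CPM in ML and 0.114, 0.484, 1.91 and 0.538 CPM in control. The ML values were 7, 0 and 1 counts, and ML 8 lay above control 1. Its log2 fold change against control was -3.14 (SE 1.00, edgeR adjusted p 0.301), and -2.17 without control 3. Mki67 was at -2.19 (SE 0.92, edgeR adjusted p 0.301), and -0.84 without control 3. Plk1 held 13, 1 and 1 counts in ML and 4, 19, 72 and 11 in control, at -2.15 (SE 0.93, edgeR adjusted p 0.302). Top2a was at -1.52 (SE 0.81) and Cdk1 at 0.49 (SE 0.59), with edgeR adjusted p of 0.344 and 0.666. Top2a was at -0.58 without control 3, and Cdk1 at 1.00 without control 3 and 0.14 without ML 9. ML 8 was the ML library with the highest level of Foxm1, Mki67, Plk1 and Top2a, and without it their values were -5.02, -3.74, -3.92 and -2.89.

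**Figure D5:**
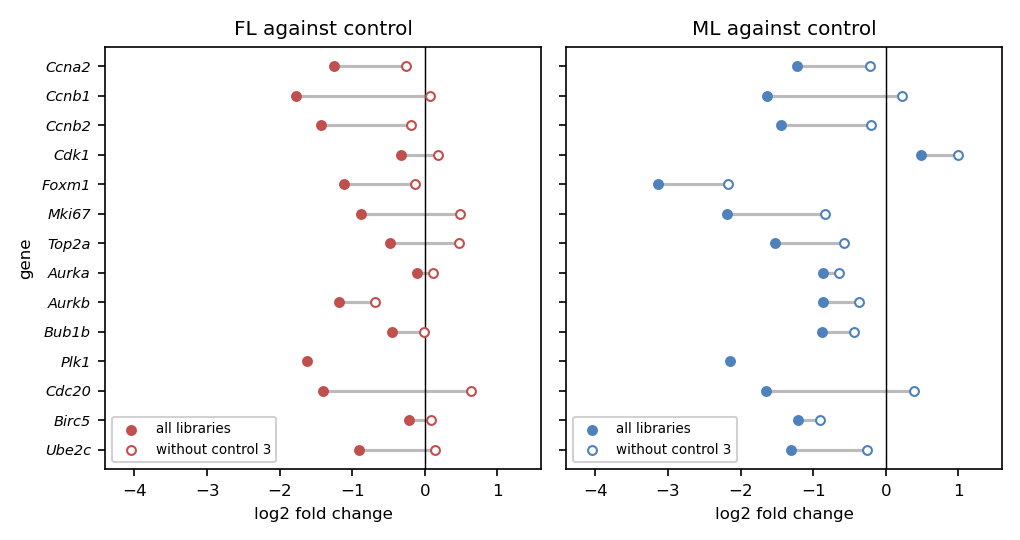
Log2 fold changes of the 14 tested mitotic genes for FL against control (left) and ML against control (right), with all libraries (filled points) and without control 3 (open points). All 14 filled points on the left lie below 0, against 5 of 13 open points, and Plk1 has no open point because it was not tested without control 3.

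Genes of mitosis outside the 38 were often highest in control 3 as well, a library singled out after its mitotic values were seen. Of 57 such genes, 50 were tested and 34 of these (68.0%) were highest in control 3, as were 7.33% of all genes tested. For FL against control 45 of the 50 were below 0 with a median of -0.47, and without control 3, 26 of 42 with a median of -0.11. Against the same controls, ML had 44 of 50 with a median of -1.01, and 33 of 42 with a median of -0.43. None passed by edgeR in either comparison. Cks1b, a CDK subunit, had 9.56, 9.15 and 10.3 CPM in FL, 5.52, 7.24 and 4.37 CPM in ML and 6.38, 3.01, 4.17 and 5.43 CPM in control. FL lay above ML and control without overlap, with a log2 fold change against control of 1.03 (SE 0.33, edgeR adjusted p 0.975). Hmgb2, a chromatin protein of dividing cells, had 2.48, 3.47 and 5.27 CPM in FL and 14.9, 10.2, 5.93 and 3.81 CPM in control, at -1.21 (SE 0.47). Nek2, a centrosome kinase, had 1.63, 1.27 and 3.00 CPM in FL and 3.08, 4.36, 7.35 and 2.85 CPM in control, at -1.16 (SE 0.47). The edgeR adjusted p of both was 1.00.

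In ML, the other mitosis genes with the lowest p were at very low levels. Espl1, separase, held 5, 2 and 1 counts in ML and 5, 12, 26 and 13 in control, at -2.01 (SE 0.68). Cenpe, a kinetochore motor, held 7, 0 and 1 counts in ML and 3, 10, 83 and 6 in control, at -2.97 (SE 1.19). Kif23, a motor of cytokinesis, held 15, 2 and 4 counts in ML and 7, 17, 48 and 31 in control, at -1.61 (SE 0.65). The edgeR adjusted p of all 3 was 0.301.

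Markers of other dividing cell types were read in the libraries that stood apart. Of all genes tested, 7.33% were highest in control 3 and 2.83% in FL 7. Control 3 was the highest library for 1 of 14 T and NK cell markers, 1 of 9 B and plasma cell markers, 0 of 9 erythroid, 0 of 10 Kupffer cell and macrophage, 1 of 10 neutrophil, 1 of 10 sinusoidal endothelial, 0 of 10 cholangiocyte and 3 of 10 stellate cell markers. In control 3 the summed erythroid level was 187 CPM, against 203, 259 and 628 CPM in the other controls, and its summed Kupffer cell level was 380.5 CPM, against 299 to 598 CPM. Its T and NK cell sum was 7.79 CPM, against 4.76 to 6.78 CPM in the other controls, and its stellate cell sum was 255 CPM, against 169 to 282 CPM. The cholangiocyte sum of control 3 was 68.7 CPM, against 34.1 to 51.0 CPM in the other controls. The B and plasma cell sum was 6.70 CPM there, against 7.18 to 23.5 CPM, and the sinusoidal endothelial sum was 258 CPM, against 240 to 343 CPM. The neutrophil sum of control 3 was 4.48 CPM, against 5.19, 4.43 and 0.852 CPM in the other controls. Of the 10 neutrophil markers, 1 (Ly6g) was at 0 in control 3, against 2, 4 and 2 in the other controls. FL 7 was highest for 1 marker over all lists, a neutrophil one, and the neutrophil markers Ly6g and Ltf were at 0 in it. The neutrophil sum of FL 7 was 4.19 CPM, against 4.70 and 4.75 CPM in FL 5 and FL 6.

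ML 9, the highest library for Tk1, Tyms, Cdk1, Cdk4 and E2f8, was highest for 28.9% of all genes tested, so the 5 genes were under that share of the 37. ML 9 was the lowest library for 11 of the 37 (29.7%), near its share of 26.1% over all genes tested. It was also highest for 10 of 14 T and NK cell, 6 of 9 B and plasma cell, 7 of 9 erythroid, 8 of 10 Kupffer cell and 5 of 10 hepatocyte markers. Its erythroid sum was 2120 CPM, against 314 and 385 CPM in the other ML libraries. These sums are values beside the result, and their part in it was not tested.

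Levels were compared between genes per kilobase of exon, as the mean over the 10 libraries. Pcna was highest at 10.3 CPM per kb, then Cdk4 at 9.85, Tk1 at 8.86 and Cdkn1b at 5.11 CPM per kb. The mean of Tk1 was raised by ML 9, and that of Cdkn1a (4.78 CPM per kb) by control 2. Ccnd1 was at 4.54 CPM per kb over all libraries, with 10.5 CPM per kb in FL, 1.56 in ML and 2.32 in control. The MCM genes lay between 0.555 CPM per kb for Mcm2 and 2.58 for Mcm7. Of the mitotic genes Aurka was highest at 0.937 CPM per kb, and Foxm1 at 0.0754 and Bub1 at 0.0408 CPM per kb were lowest.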

How the data were processed

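The submitters' processing notes name STAR (an aligner), featureCounts (a read counter) and the GRCm38 build. Tool versions, annotation release and strand setting: not given in the sources used here. The values the authors deposited are raw counts per gene. Per the labels' protocols, the libraries were directional and paired-end. Of 46071 rows, 45229 matched GENCODE M21 by identifier, which supplied symbols, coordinates and exon length.

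The counts were tested with edgeR 4.0.16 (R 4.3.3): TMM scaling, low genes removed by filterByExpr (minimum count 10), then a robust quasi-likelihood test over all 10 libraries with 1 coefficient per group. This left 14820 genes, 7 residual degrees of freedom and a common biological coefficient of variation of 0.448. Tests were two-sided, and each SE came from the fold change and its F statistic. CPM values use TMM-scaled library sizes. The procedure was tested on simulated data. Alternatives used DESeq2 1.42.0, limma 3.58.1 and sva 3.50.0. The totals limit the precision, and low counts carry counting error besides the spread between libraries.

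The members and lists were chosen with earlier results of these data known. Fold changes are printed for the 6 genes with the lowest p per comparison, for Ccnd1, Cdkn1a, Cdk1, Mki67 and Top2a against control, and for the 3 with the lowest p per wider list. Of the 38 genes, 15 overlap exons of a gene on the opposite strand, so their counts are uncertain. On the same strand, Foxm1 overlaps exons of Tex52 over 144 bp and of Gm44596 over 97 bp. Top2a overlaps Gm23451 over 122 bp on its own strand, and Mcm7 overlaps Mir25 and Mir93. The part of these overlaps in the counts was not tested.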

Additional observations from a re-analysis of the deposited data

Results flagged for a closer look

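Within the 4 controls, 11 of the 38 genes had a library far from the others, by the gap from the extreme library to its nearest neighbour divided by the whole range, with 0.829 as the limit for 4 values. Chance flags about 1 in 20 groups if the values are normally distributed, which CPM values need not be. The share flagged over all genes tested was not computed, so the count of 11 has no background beside it. In 9 of the 11, control 3 was the high library. The gap took up 0.976 of the range for Cdc20, 0.939 for Mki67, 0.923 for Bub1b, 0.922 for Ccna2, 0.906 for Ccnb1, 0.872 for Top2a, 0.859 for Ccnb2, 0.857 for Ube2c and 0.843 for Plk1. It took up 0.946 for the summed CPM of the 15 mitotic genes. The 2 others were Cdkn1a, at 0.953 with control 2 high, and Cdkn1b, at 0.901 with control 1 high. The 9 genes are measured in the same library, so these 9 are not independent of each other. Groups of 3 libraries were not examined in this way, so FL 7 and ML 9 were not judged by it.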

How the results depend on the processing

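No cell cycle gene passed under any setting run, but DESeq2 gave none of them an adjusted p for FL against ML. No paired analysis was possible because the replicate numbers 1 to 10 share none between groups. The number of all genes past the threshold was 52 with DESeq2, 1 with limma-voom and 1 without a filter on low counts for FL against control, where edgeR called 2. For ML against control, where edgeR called 0, it was 46 with DESeq2 and 3 without the filter. For FL against ML, where edgeR called 1, it was 248 with DESeq2, 2 without the filter and 0 with only the compared groups in the fit. The median for ML against control was -0.29 over the 29 cell cycle genes left by a filter on a mean CPM of at least 1. That set differs from the 37 genes of the main fit. With 1 surrogate variable, ML against control turned to 0.28 for Ccnd1, 1.73 for Cdkn1a and -0.24 for Cdk1, and FL against ML to 0.0066 for Tk1. The cause was not tested.

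With each library left out in turn, the all-gene counts ranged over 0 to 2 for FL against control, 0 to 1 for ML against control and 0 to 1 for FL against ML. The number of cell cycle genes below 0 ranged over 13 to 29 for FL against control. It ranged over 25 to 30 for ML against control and 9 to 19 for FL against ML. The median of the cell cycle genes ranged over -1.24 to -0.24 for ML against control and -0.020 to 0.78 for FL against ML. Fold changes that changed sign were, for FL against control, those of Cdk1 (range -1.05 to 0.18, and 0.03 without FL 5), Mki67 (-1.19 to 0.48) and Top2a (-0.96 to 0.46), each highest without control 3, and for ML against control that of Cdkn1a (-4.05 to 1.01, highest without control 2). Of 757 alternatives computed for 49 named fold changes, 746 kept direction and call, 2 gained a call with DESeq2 (Cdca7 for FL, Btg2 for ML, adjusted p 0.033) and 9 changed sign. A missing adjusted p was counted as no call, so the cell cycle genes could gain none with DESeq2 for FL against ML. Of the 49, the size of 30 moved by a factor over 1.5, or its sign changed, with some library left out, as it did for 19 with 1 surrogate variable, 4 with the length and GC correction and 4 with DESeq2 or limma-voom. Depth limits the mitotic genes most: 10 of the 38 genes had under 10 counts in FL 5 and in ML 10, and 13 in ML 9.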
